A study of Danio rerio with 15 samples.

Results

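Cells of the zebrafish trunk at 27 hours post fertilization were compared in 9 of the 15 arrays of the study, 5 of all spinal neurons and 4 of trunk cells, chosen by their labelled cell type. All spinal neurons were EGFP-positive cells sorted from Tg(elavl3:EGFP) embryos, in which the elavl3 promoter, active in newly postmitotic neurons, drives EGFP, so the group holds whatever cells that promoter marks and keeps no neuron class apart. Trunk cells came from dissociated tissue of the same dissected region, spinal cord together with its neighbouring tissues, and the labels name no transgenic line for them. Spinal neurons are therefore also part of the trunk cells, and a difference between the groups is one between a sorted population and a mixture that contains it. The other 6 arrays, of V1 interneurons sorted from Tg(pax2a:GFP) embryos, entered the fit only to share its estimate of spread. All 15502 probe sets that are not array controls were tested.

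A neuron that has left the cell cycle turns on a common set of genes, whichever class it belongs to. RNA-binding proteins of the Elav, Nova and Celf families change splicing and message stability, tubulins and their partners build the axon, and vesicle proteins equip the synapse. Over that common programme lie the transcription factors of each class, which in the zebrafish embryo include primary motor neurons, Kolmer-Agduhr cells that contact the cerebrospinal fluid, several classes of ventral and dorsal interneuron, and the Rohon-Beard sensory neurons of the dorsal cord.

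Levels are RMA values on the log2 scale, the authors' summary of the probes of each probe set, and a difference is the mean of all-neuron arrays minus the mean of trunk arrays, with the moderated standard error (SE) of a limma fit. A probe set or gene is called higher or lower where that fit's adjusted p is under 0.05. Because the values came without detection calls, it is not known which low levels lie above background, and the median of all values, 5.52, is used as a guide. Fold changes are given only where both group means exceed that median, and other differences are of signal on the log2 scale. The labels number the replicates but do not say that they came from separate clutches or sorts, so the p-values measure the spread between these arrays, which may be technical. In bulk RNA of a mixture, fewer cells of a type and less RNA per cell cannot be told apart.

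Both groups held arrays that stood apart. Pairs of arrays correlated, over probe sets that are no independent replicates, with Pearson's r of 0.9799 to 0.997 within all spinal neurons, 0.9796 to 0.9919 within trunk cells and 0.8944 to 0.9502 between the groups. The first principal component of the 9 arrays held 77.3% of the variance and put all-neuron arrays 4 and 5 (61.77 and 56.33) farther from the trunk arrays (-57.33 to -47.6) than all-neuron arrays 1 to 3 (28.15 to 34.75). Between all-neuron arrays 4 and 5 and arrays 1 to 3, 66 probe sets were higher (0.426% of those tested) and 189 lower (1.22%), and 42 of 72 measured skeletal muscle genes were among the lower. Between trunk arrays 1 and 2 and trunk arrays 3 and 4, 60 were higher (0.387%) and 80 lower (0.516%). This comparison held fewer arrays, so its counts are not ranked against those before. The second principal component (6.5% of the variance) put trunk arrays 1 and 2 at 12.07 and 27.34 and arrays 3 and 4 at -17.52 and -20.7. A control probe set on the array, AFFX-Dr-U43284-1_s_at, lay between 10.16 and 10.76 in all spinal neurons, and in trunk cells it was 8.02 and 8.16 on the first pair of arrays but 5.63 and 5.71 on arrays 3 and 4. On the V1 arrays it lay between 4.98 and 5.59. Apart from the identifier in its name, the deposited files used here do not say what it detects, and this was not tested.

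All spinal neurons were higher than trunk cells in 3219 probe sets (20.8% of those tested) and lower in 3196 (20.6%), and with a log2 difference of at least 1 these were 1156 (7.46%) and 1151 (7.42%). The arrays of the groups did not overlap in 2893 probe sets that were higher (18.7%) and 2803 that were lower (18.1%). The shares of 20.8% higher and 20.6% lower are the background for the counts of called list genes below. They cover all probe sets, dim ones included, whereas each list gene enters through its brightest probe set. Among only the probe sets whose mean reached the median of all values, 2584 were higher and 2091 lower. A list share moderately above the background is therefore not read as an excess. The median of all differences was -0.03. Scaling each array to an equal mean of ribosomal protein genes moved that median to 0.43 and changed the split to 8309 higher and 1294 lower, so directions below are relative to the RMA scale, and lists whose median changes sign under that scaling are named. Against trunk arrays 1 and 2 alone, 2819 were higher (18.2%) and 2999 lower (19.3%), and against trunk arrays 3 and 4 alone 2684 (17.3%) and 2497 (16.1%). All-neuron arrays 4 and 5 alone gave 3014 higher (19.4%) and 2826 lower (18.2%) than trunk cells, and arrays 1 to 3 alone 2771 (17.9%) and 2726 (17.6%).

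**Figure D1:**
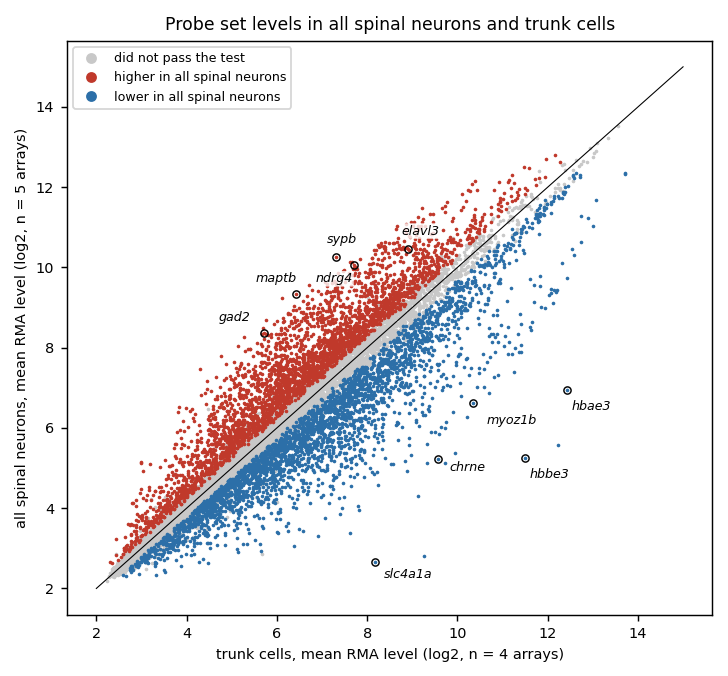
Each point is 1 tested probe set, with its mean RMA level (log2) in 4 trunk arrays on the horizontal axis and in 5 all-neuron arrays on the vertical axis; red points are higher and blue points lower in all spinal neurons at adjusted p under 0.05, grey points did not pass, and the line marks equal levels. The 10 circled genes include sypb, maptb and gad2 above the line and hbbe3 and slc4a1a below it.

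The 4 markers of the population were all higher in all spinal neurons. elavl3, an RNA-binding protein of early postmitotic neurons and the source of the sorted line's promoter, read 9.79, 10.66, 10.76, 10.75 and 10.40 in all-neuron arrays 1 to 5, against 8.75, 8.49, 8.96 and 9.44 in trunk arrays 1 to 4. maptb, a microtubule-associated protein of the tau family, read 8.88, 9.02, 9.30, 9.95 and 9.55 in all-neuron arrays, against 6.50, 6.21, 6.21 and 6.76 in trunk arrays. In both genes every all-neuron array lay above every trunk array, with the gap smallest for elavl3. sypb, a synaptophysin of the synaptic vesicle membrane, read 10.04, 10.13, 9.90, 10.62 and 10.55 in all-neuron arrays, against 7.46, 7.17, 7.19 and 7.43 in trunk arrays. ndrg4, an N-myc downstream-regulated gene of neurons and heart, read 10.03, 9.87, 10.03, 10.22 and 10.12 in all-neuron arrays, against 7.55, 7.57, 7.69 and 7.98 in trunk arrays. In these 2 genes as well, every all-neuron array lay above every trunk array. The differences were 1.56 for elavl3 (SE 0.25, adjusted p = 8.18e-05, 2.95-fold), 2.91 for maptb (SE 0.28, adjusted p = 6.58e-07, 7.54-fold), 2.93 for sypb (SE 0.28, adjusted p = 6.55e-07, 7.65-fold) and 2.35 for ndrg4 (SE 0.11, adjusted p = 2.5e-09, 5.11-fold).

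Other probe sets of the markers did not all give the same size. elavl3 had 4 probe sets, all higher. The second brightest read 9.56, 9.14, 9.08, 9.39 and 9.03 in all-neuron arrays, against 7.51, 7.11, 4.62 and 5.20 in trunk arrays 1 to 4. Its difference was 4.33 from trunk arrays 3 and 4 and 1.93 from trunk arrays 1 and 2. Between the trunk pairs the difference was 2.40, so this probe set split the trunk arrays in the same way as the control probe set above. On V1 arrays its mean was 6.37, against 9.24 in all spinal neurons. The other elavl3 probe sets had V1 means of 10.6, 6.41 and 6.72, near their all-neuron means of 10.47, 6.26 and 6.55. What the second brightest probe set measures was not tested, so its differences are not read as those of the elavl3 gene. The brightest elavl3 probe set gave 1.85 against trunk arrays 1 and 2 and 1.27 against trunk arrays 3 and 4. The annotation gives probe sets of the brightest one's design cluster to elavl3 and also to tnn, an extracellular matrix gene, so the assignment of this cluster is uncertain. A dimmer ndrg4 probe set was lower on trunk arrays 1 and 2, at 6.58 to 8.12 in all-neuron arrays, against 3.40, 3.32, 5.07 and 5.38 in trunk arrays 1 to 4. Its difference between the trunk pairs, -1.87, did not pass (limma, adjusted p = 0.0594). Of 3 sypb probe sets, 2 were higher and the dimmest, at means of 5.55 in all spinal neurons and 5.22 in trunk cells, did not pass (adjusted p = 0.163).

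Genes of the synaptic vesicle and its release machinery were higher in 22 of 25 measured genes and lower in 1, with a median difference of 1.92 against -0.03 over all probe sets. snap25b, a SNARE protein of vesicle fusion, read 9.94, 9.49, 9.57, 10.20 and 10.03 in all-neuron arrays, against 6.94, 7.09, 7.40 and 7.95 in trunk arrays (difference 2.50, SE 0.21, adjusted p = 1.86e-07, 5.66-fold). sncgb, a synuclein, averaged 8.68 ± 0.39 in all spinal neurons (SD, n = 5) and 5.76 ± 0.64 in trunk cells (SD, n = 4), a difference of 2.93 in the brightest of its 3 probe sets, and the other 2 did not pass. Outside the rule by which genes are named, and chosen after their values were seen, rab3c (2.36), the calcium sensor syt1a (2.08), syn1 (2.1), nsfa (2.12), which takes SNARE complexes apart, and the active-zone scaffold rims2a (2.02) were also higher. The gene that was lower, bin1b, an amphiphysin also made in muscle, had a mean of only 2.7 in all spinal neurons. The list's median was 2.19 against trunk arrays 1 and 2 and 1.74 against trunk arrays 3 and 4, and its mean level was 8.71 to 9.14 in all-neuron arrays against 7.08 to 7.55 in trunk arrays.

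The cytoskeleton and growth cone list was higher in 32 of 41 measured genes and lower in 3, with a median of 1.55. atat1, which acetylates alpha-tubulin, read 7.35, 6.86, 6.76, 7.48 and 7.50 in all-neuron arrays, against 4.86, 4.75, 4.77 and 4.88 in trunk arrays, a difference of 2.37 (SE 0.17, adjusted p = 6.38e-08). The trunk arrays lay close together in this gene, and every all-neuron array lay above them. Further members, again chosen after their values were seen, were the axonal kinesin kif5aa (2.31), the growth cone protein gap43 (2.14), map1aa (2.03), stmn1b (2.02), stmn2a (1.98), the neurofilament gene inab (1.98) and dpysl3 (1.75). Tubulins did not move as a block: tubb2 was 2.24, tubb5 1.49 and tubb2b 0.62 higher, whereas tubb4b (0.37) and tuba1b (-0.27) did not pass. The 3 lower genes were rtn4a (-0.97), tmsb1 (-0.96) and cap1 (-0.52).

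**Figure D2:**
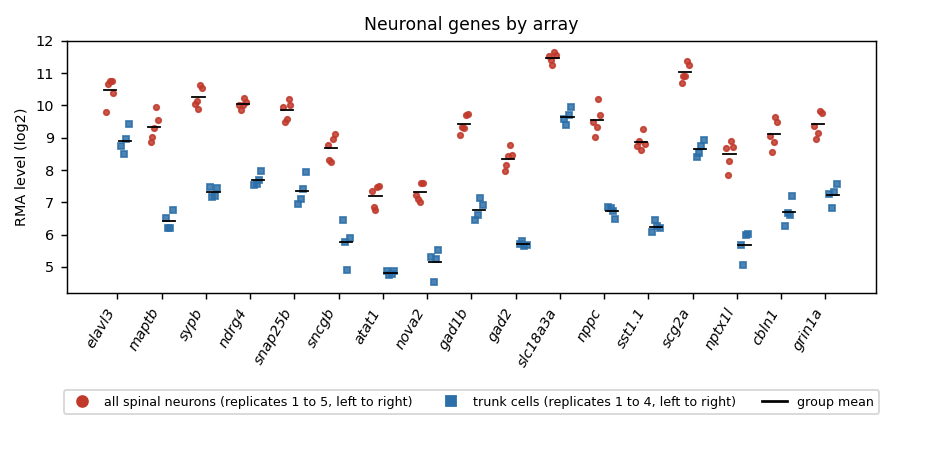
RMA level (log2) of 17 neuronal genes on each array, with 5 all-neuron arrays as red circles to the left of 4 trunk arrays as blue squares for every gene, in replicate order, and the group mean as a black line. In each of the 17 genes all 5 all-neuron arrays lie above all 4 trunk arrays, by the smallest margin in elavl3. The rule by which genes are named required such separation of several of them.

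RNA-binding and nuclear factors of neurons were higher in 12 of 22 measured genes and lower in 3 (median 0.83). That median was 0.55 with all-neuron arrays 4 and 5 alone. It was 0.39 where each gene entered by the median of its probe sets rather than the brightest. nova2, a splicing regulator of neurons, averaged 7.31 ± 0.28 in all spinal neurons (SD, n = 5) and 5.15 ± 0.42 in trunk cells (SD, n = 4), a difference of 2.16 (SE 0.19, adjusted p = 2.44e-07). That value is of the brightest of its 3 probe sets, and the others, with levels between 3.63 and 4.85, did not pass. celf3a (1.88, adjusted p = 7.65e-07) and rbfox1 (1.83, adjusted p = 0.000214), both also splicing regulators, were higher too. The lower members were qkia (-1.04), an RNA-binding gene that muscle and glia also use, celf2 (-0.90) and sox4a (-0.78). insm1b, a zinc-finger gene of differentiating neurons and endocrine cells, was 1.44 higher (SE 0.31, adjusted p = 0.0012), but its levels of 8.99 to 9.81 in all-neuron arrays lay close to those of 7.0 to 8.76 in trunk arrays.

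Axon guidance and adhesion genes were less uniform, with 24 of 57 measured genes higher (42.1%), 4 lower (7.02%) and a median of 0.23. The 3 with the largest differences were adhesion or synaptic genes rather than guidance receptors. nptna, a neuroplastin, read 9.94, 9.49, 9.44, 10.38 and 10.29 in all-neuron arrays, against 7.34, 7.07, 7.42 and 8.06 in trunk arrays, a difference of 2.44 (SE 0.23, adjusted p = 4.48e-07). cbln1, a secreted synaptic organizer, averaged 9.12 ± 0.43 in all spinal neurons (SD, n = 5) and 6.69 ± 0.39 in trunk cells (SD, n = 4), and cadm3, a synaptic cell adhesion molecule, averaged 8.67 ± 0.74 and 6.31 ± 0.23 in the same groups. All 3 genes separated every all-neuron array from every trunk array. Among receptors of guidance cues, robo2 (1.5), robo1 (0.87) and robo3 (0.67) were higher, while neo1a (-0.03) and ephb2b (-0.04) did not pass. The lower genes were rgmd (-1.35), thy1 (-1.20), cdh11 (-1.0) and cxcr4a (-0.90), of which cdh11 and rgmd had means of 8.1 and 8.0 in all spinal neurons.

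Ion channels were higher in 8 of 13 measured genes (61.5%) and lower in 1 (7.69%), with a median of 0.47. Of 84 listed channel genes only these 13 were measured, and the list was dim. Its mean level was 5.09 to 5.42 in all-neuron arrays and 4.64 to 4.95 in trunk arrays, below the median of all values. Among probe sets whose mean reached that median, 4 were higher and 0 lower. kcnh2a, a potassium channel of the ERG family, averaged 7.38 ± 0.37 in all spinal neurons (SD, n = 5) and 5.63 ± 0.51 in trunk cells (SD, n = 4), a difference of 1.75 (SE 0.23, adjusted p = 1.52e-05, 3.36-fold). scn8aa, the voltage-gated sodium channel that zebrafish Rohon-Beard cells use, read 7.54, 6.47, 6.33, 7.34 and 7.22 in all-neuron arrays, against 5.36, 5.22, 5.85 and 5.93 in trunk arrays (difference 1.39, SE 0.23, adjusted p = 0.000151). The groups did not overlap in either gene. p2rx5, an ATP-gated channel, was the lower one, at 2.96 to 3.27 in all-neuron arrays, against 4.46, 4.75, 6.03 and 5.72 in trunk arrays 1 to 4.

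Transmitter receptors were called higher less often than the presynaptic genes, but their list was dim. Its mean level was 4.98 to 5.06 in all-neuron arrays and 4.95 to 5.22 in trunk arrays, below the median of all values. Without detection calls, it is not known how many of these receptors lay above background. The few calls therefore cannot decide whether receptor expression differs from the presynaptic pattern. Of 35 measured genes 6 were higher (17.1%) and 4 lower (11.4%), both shares below those over all probe sets, and the median of -0.09 changed sign to 0.37 with equal ribosomal protein means. grin1a, the obligatory subunit of NMDA receptors, read 9.36, 8.97, 9.16, 9.83 and 9.78 in all-neuron arrays, against 7.25, 6.83, 7.32 and 7.56 in trunk arrays, a difference of 2.18 (SE 0.22, adjusted p = 1.3e-06, 4.53-fold). A dimmer grin1a probe set, at means of 4.94 in all spinal neurons and 4.66 in trunk cells, did not pass. The largest lower members were both acetylcholine receptor subunits of the neuromuscular junction. chrne read 5.97, 5.77, 5.93, 4.01 and 4.42 in all-neuron arrays, against 9.36, 9.38, 10.00 and 9.59 in trunk arrays (difference -4.36, SE 0.38, adjusted p = 2.77e-07). chrna1 was 2.88 lower on the same scale (a difference of -2.88, SE 0.44, adjusted p = 6.47e-05, fold 7.36), and both subunits were lowest in all-neuron arrays 4 and 5, the arrays with the lowest muscle genes. Without trunk array 2 the count of lower receptor genes was 2, as it was against trunk arrays 3 and 4 alone and in all-neuron arrays 4 and 5 alone.

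The enzymes of GABA synthesis, gad1b and gad2, were among the 15 higher genes with the largest differences. gad1b, which makes GABA from glutamate, read 9.08, 9.34, 9.29, 9.71 and 9.74 in all-neuron arrays, against 6.46, 6.61, 7.12 and 6.92 in trunk arrays, a difference of 2.65 (SE 0.28, adjusted p = 1.86e-06, 6.29-fold). gad2, the second GABA-synthesizing enzyme, read 7.97, 8.16, 8.42, 8.77 and 8.46 in all-neuron arrays, against 5.72, 5.79, 5.65 and 5.67 in trunk arrays, also a difference of 2.65 (SE 0.20, adjusted p = 7.34e-08, 6.26-fold). slc18a3a, the vesicular acetylcholine transporter of cholinergic neurons, read 11.52, 11.40, 11.26, 11.65 and 11.56 in all-neuron arrays, against 9.57, 9.40, 9.69 and 9.94 in trunk arrays (difference 1.83, SE 0.12, adjusted p = 3.34e-08, 3.55-fold). No array of one group reached the other in slc18a3a. The same held for gad1b and gad2, where the rule for the 15 genes required it. Of the 18 measured genes of transmitter synthesis and transport 8 were higher (44.4%, against 20.8% of all probe sets) and 3 lower (16.7%, against 20.6%). slc32a1, which loads GABA and glycine into vesicles, was 2.06 higher. Genes of monoamine synthesis and uptake (th, dbh, tph2 and slc6a3) did not pass and had means of 3.6 to 4.8 in all spinal neurons. The lower genes were gatm (-2.69), which makes the creatine precursor, and the glutamine synthetases glula (-2.37) and glulb (-0.54), enzymes that muscle or glia also use.

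Neuropeptide precursors, granins and their processing enzymes were higher in 12 of 26 measured genes, with a median of 0.44 and none lower by limma at adjusted p under 0.05 (2 lower at an unadjusted p under 0.05). Without trunk array 3, and against trunk arrays 1 and 2 alone, 1 was lower. nppc, the precursor of C-type natriuretic peptide, read 9.50, 9.03, 9.33, 10.20 and 9.72 in all-neuron arrays, against 6.85, 6.81, 6.74 and 6.48 in trunk arrays (difference 2.84, SE 0.31, adjusted p = 2.49e-06, 7.15-fold). sst1.1, a somatostatin made by Kolmer-Agduhr cells of the zebrafish cord, read 8.73, 8.91, 8.63, 9.28 and 8.82 in all-neuron arrays, against 6.07, 6.44, 6.26 and 6.22 in trunk arrays (difference 2.63, SE 0.20, adjusted p = 9.7e-08). scg2a, a granin of dense-core vesicles, was among the brightest of the list, at 10.70 to 11.39 in all-neuron arrays against 8.41 to 8.94 in trunk arrays. The genes that passed fell into peptides (nppc, sst1.1, sst2, penkb, adcyap1a and adcyap1b) and the common machinery of dense-core vesicles (scg2a, scg3, scg5, chga, cpe and pcsk1nl). Among other peptide genes, oxt (-0.15), avp (-0.21), gnrh2 (-0.25) and pomca (-0.14) did not pass.

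Among genes outside these lists, the largest differences included nptx1l, a neuronal pentraxin, at 7.85 to 8.90 in all-neuron arrays against 5.06 to 6.01 in trunk arrays (difference 2.80, SE 0.25, adjusted p = 3.25e-07). atp2b3a, a calcium pump of the plasma membrane, averaged 8.93 ± 0.44 in all spinal neurons (SD, n = 5) and 6.35 ± 0.46 in trunk cells (SD, n = 4), and mpp2b, a membrane scaffold protein, averaged 9.03 ± 0.32 and 6.39 ± 0.28 in the same groups. fam43b had a difference of 2.58 (SE 0.23, adjusted p = 3.6e-07). The rule that named these 4 genes required that no all-neuron array fall within the range of trunk arrays, so that separation is no further result.

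**Figure D3:**
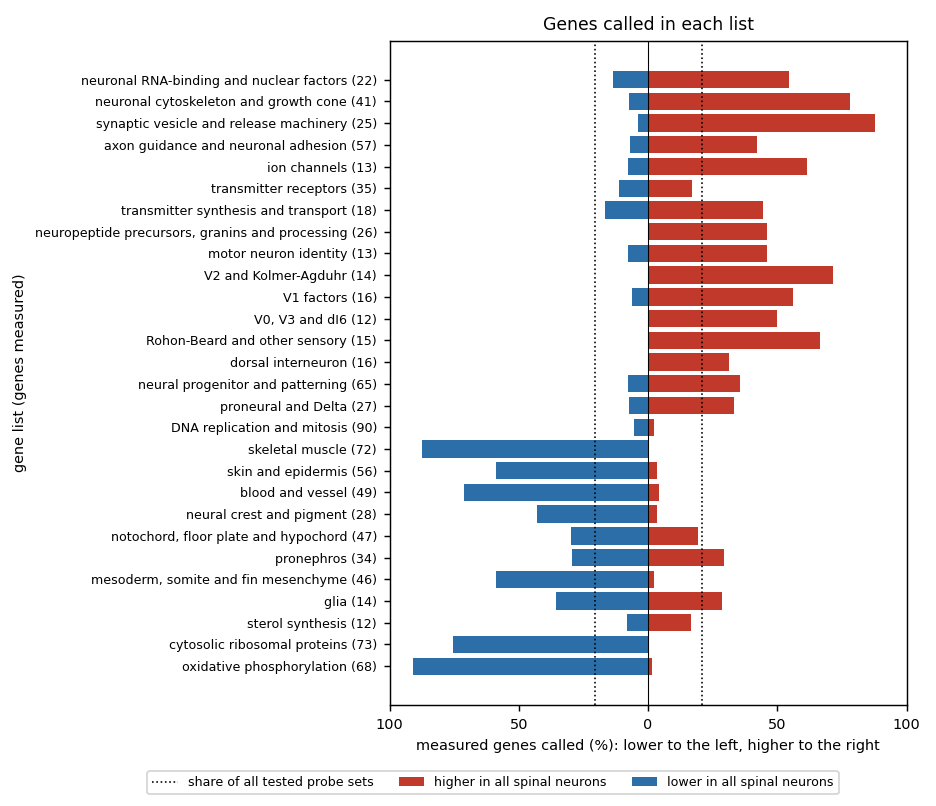
Share of the measured genes of each list (number measured in parentheses) called higher in all spinal neurons, as red bars to the right of 0, and called lower, as blue bars to the left; dotted lines mark the shares over all tested probe sets, 20.8% higher and 20.6% lower. Synaptic vesicle genes reach 88% higher, whereas skeletal muscle genes reach 87.5% lower and oxidative phosphorylation genes 91.2% lower.

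Transcription factors of several neuron classes were measured together, since the sort did not separate classes. Of 13 measured motor neuron genes 6 were higher and 1 lower (median 0.50). isl2a, a LIM homeodomain factor of motor and Rohon-Beard neurons, read 9.12, 9.47, 9.46, 10.08 and 9.80 in all-neuron arrays, against 6.98, 6.87, 7.26 and 7.28 in trunk arrays (difference 2.49, SE 0.21, adjusted p = 2.52e-07, 5.61-fold). isl1a, its relative in motor, Rohon-Beard and some dorsal neurons, read 10.60, 10.40, 10.48, 10.80 and 10.59 in all-neuron arrays, against 8.22, 8.05, 8.37 and 8.31 in trunk arrays (difference 2.34, SE 0.17, adjusted p = 6.04e-08). The spread among all-neuron arrays was small in isl1a, and its dimmer probe set was higher as well. olig2, a factor of motor neuron progenitors, had a difference of 0.50 that did not pass, and lhx3 (-0.09), at a mean of 3.8, did not pass either. aldh1a2, a retinoic acid synthesizing enzyme that trunk mesoderm also makes, was the lower member (-1.82), but did not pass against trunk arrays 1 and 2 alone or in all-neuron arrays 1 to 3 alone.

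In the list for V2 and Kolmer-Agduhr neurons 10 of 14 measured genes were higher, the median was 1.3, and none was lower by limma, at an unadjusted p under 0.05 either. sox1a, a SoxB1 factor of V2 neurons, read 7.73, 8.02, 7.94, 8.50 and 8.33 in all-neuron arrays, against 5.60, 5.52, 5.79 and 5.32 in trunk arrays (difference 2.55, SE 0.22, adjusted p = 2.28e-07, 5.85-fold). Of its 3 probe sets 2 were higher and 1 did not pass. gata3, a zinc-finger factor of inhibitory V2b and Kolmer-Agduhr cells, averaged 7.50 ± 0.29 in all spinal neurons (SD, n = 5) and 5.28 ± 0.36 in trunk cells (SD, n = 4), a difference of 2.22 (adjusted p = 1.47e-07). gata2a (1.48) and tal1 (1.43), which act with it in V2b cells and also in blood, were higher as well. In the blood and vessel list, which holds both, 35 of 49 genes were lower. Which cells gave the gata2a and tal1 signal was not tested. Among factors of V1 and related classes 9 of 16 measured genes were higher and 1 lower, or 2 lower without trunk array 1 (median 0.93). The largest was hmx3a, a homeodomain factor of spinal interneurons, at 8.21, 8.13, 8.23, 8.52 and 8.56 in all-neuron arrays, against 5.66, 5.18, 6.25 and 5.97 in trunk arrays (difference 2.56, SE 0.19, adjusted p = 9.03e-08, 5.92-fold). lhx5 (2.27, SE 0.13, adjusted p = 7.95e-09) and lhx1a (1.92, SE 0.13, adjusted p = 4.22e-08), LIM homeodomain factors of several interneuron classes, had the smallest standard errors of these. All 3 lhx1a probe sets were higher. en1b, the Engrailed factor that marks V1 cells, was 1.51 higher, and en1a was 0.53 lower on the log2 scale (a difference of -0.53) at a mean of 3.0 in all spinal neurons.

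For V0, V3 and dI6 neurons 6 of 12 measured genes were higher (50%) and none lower by limma (1 lower at an unadjusted p under 0.05), and the median was 0.28. Without all-neuron array 1, with all-neuron arrays 4 and 5 alone, and without the dimmest 25% of probe sets, 1 was lower. dmrt3a, the factor of dI6 commissural neurons, read 6.96, 7.09, 7.17, 7.26 and 7.10 in all-neuron arrays, against 5.15, 4.50, 5.00 and 5.51 in trunk arrays (difference 2.08, SE 0.24, adjusted p = 3.47e-06). bhlhe22 (1.70), a basic helix-loop-helix factor of interneurons, and nkx2.2b (1.21), a factor of the ventral cord, were also higher, the second from means of 5.11 in all spinal neurons and 3.90 in trunk cells. The progenitor factors dbx1a (-0.87), dbx1b (-0.03) and dbx2 (0.00) did not pass. The list for Rohon-Beard and other sensory neurons was higher in 10 of 15 measured genes, with a median of 1.39, and none was lower by limma, at an unadjusted p under 0.05 either, but 1 was against trunk arrays 1 and 2 alone. prdm14, a PR-domain factor of zebrafish Rohon-Beard cells and motor neurons, read 7.16, 7.71, 7.75, 8.72 and 8.31 in all-neuron arrays, against 4.92, 4.76, 5.54 and 5.97 in trunk arrays (difference 2.63, SE 0.27, adjusted p = 1.49e-06). tlx2 (2.18, SE 0.25, adjusted p = 3.95e-06), a homeodomain factor of sensory and dorsal excitatory neurons, was higher, with tlx3b (2.08) and runx3 (2.07) beside it. Of 16 measured dorsal interneuron genes 5 were higher (31.2%) and none lower by limma, at an unadjusted p under 0.05 either, and 4 of those 5 (hmx3a, isl1a, tlx2 and tlx3b) are also in the sensory or V1 lists. Without trunk array 1, against trunk arrays 1 and 2 alone, and with cyclic loess scaling, 1 was lower. The factors atoh1a (-0.14), ptf1a (-0.20), lhx9 (0.05) and barhl2 (-0.04) of dorsal neurons and progenitors did not pass.

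Genes of neural progenitors were not lower as a group. Of 65 measured genes 23 were higher (35.4%), 5 were lower (7.69%) and the median was 0.42. The largest difference was that of sox1a, given above, and the next that of id4, an inhibitor of basic helix-loop-helix factors, at 9.73, 9.72, 9.79, 10.29 and 10.18 in all-neuron arrays, against 7.84, 7.54, 7.41 and 7.18 in trunk arrays (difference 2.45, SE 0.16, adjusted p = 2.62e-08, 5.47-fold). sox2 (0.76), zic2a (0.83) and irx3a (0.75) passed with smaller differences, whereas sox3 (0.45), sox19a (0.13), gfap (0.42) and notch1a (0.43) did not pass. hey1, a repressor induced by Notch and also made in vessels and somites, was the largest lower member, at 5.09, 6.74, 6.51, 5.25 and 5.26 in all-neuron arrays, against 7.24, 9.13, 8.25 and 7.52 in trunk arrays (difference -2.26, SE 0.40, adjusted p = 0.000249). The others were notch2 (-1.64), her9 (-1.05), id3 (-0.82) and her6 (-0.59). The counts depended on which all-neuron arrays were used: arrays 4 and 5 alone gave 16 higher and 9 lower, and arrays 1 to 3 alone 25 higher and 4 lower.

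The proneural and Delta list covers cells at the step from progenitor to neuron. It had 9 of 27 measured genes higher (33.3%, against 20.8% of all probe sets) and 2 lower (7.41%, against 20.6%). Neither this higher share nor that of the progenitor list is read as an excess, as list genes enter through their brightest probe sets. Its median was 0.18. The largest differences were those of elavl3 (1.56), whose promoter drives the EGFP of the sort, and insm1b (1.44), both given above. jag2b, a Notch ligand, averaged 7.89 ± 0.31 in all spinal neurons (SD, n = 5) and 6.75 ± 0.30 in trunk cells (SD, n = 4), a difference of 1.14 (SE 0.20, adjusted p = 0.00023). Of the Delta ligands dlb was higher (0.89), dld lower (-0.74), and dla (0.35) and dlc (-0.19) did not pass. neurod1, a differentiation factor, was 1.05 higher, and neurog1 (0.34) and ascl1a (0.28), which act in progenitors, did not pass.

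The cell cycle gave few calls. Of 90 measured genes of DNA replication and mitosis 2 were higher (2.22%) and 5 lower (5.56%), far below the shares over all probe sets, and the median of -0.19 changed sign to 0.27 with equal ribosomal protein means. That scaling gave 26 higher and 0 lower, whereas cyclic loess scaling gave 0 higher and 13 lower. The direction of this list therefore depends on the scaling and is not settled here. The 5 were ccne1 (-0.74, adjusted p = 0.0313), a G1 cyclin, cdt1 (-0.69, adjusted p = 0.0413) and orc2 (-0.55, adjusted p = 0.0263), which license replication origins, cdc45 (-0.46) and gins1 (-0.27), and the higher ones were nusap1 (0.54) and bub3 (0.42), both of the spindle. cdt1 read 7.63, 7.41, 7.32, 6.63 and 7.09 in all-neuron arrays, against 8.28, 7.61, 7.64 and 8.10 in trunk arrays, so all-neuron array 1 overlapped the lowest trunk array. The count of lower genes was 35 with all-neuron arrays 4 and 5 alone and 0 with arrays 1 to 3 alone. It was 11, 9 and 9 without all-neuron array 1, 2 or 3, 1 and 2 without all-neuron array 4 or 5, and 1 and 2 without trunk array 1 or 4. The count of higher genes was 1 without all-neuron array 1, 2, 3 or 4 or trunk array 2 or 4, and 0 without trunk array 3. Between all-neuron arrays 4 and 5 and arrays 1 to 3, the median of the list was -0.53 and 5 genes were lower, among them mcm3 (-1.04) and mcm4 (-0.85) of the replicative helicase. Muscle and mesenchyme genes were lower on the same arrays 4 and 5, and their part in these counts was not tested.

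**Figure D4:**
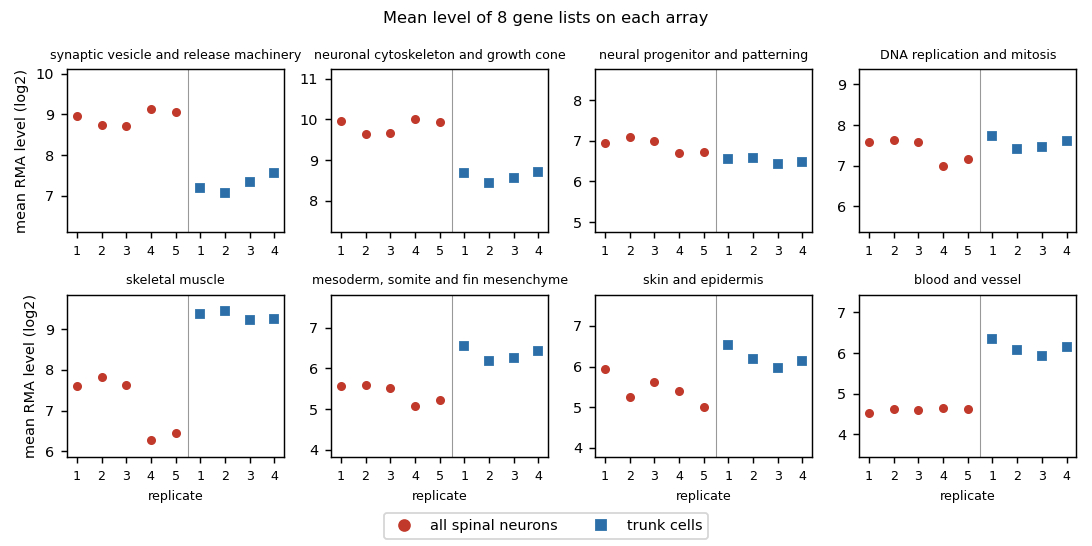
Mean RMA level (log2) of the measured genes of 8 lists on each of the 5 all-neuron arrays (red circles) and 4 trunk arrays (blue squares), with an axis of the same length in every panel. Synaptic and cytoskeletal lists are higher on every all-neuron array, skeletal muscle genes are at 7.60 to 7.82 on all-neuron arrays 1 to 3 and at 6.27 and 6.45 on arrays 4 and 5, and the DNA replication list is lowest on the same 2 arrays.

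Genes of the other tissues of the trunk were mostly lower in all spinal neurons. Skeletal muscle genes were lower in 63 of 72 measured genes, with a median of -2.54, and none was higher by limma, at an unadjusted p under 0.05 either, although 3 were higher with equal ribosomal protein means. Their mean level was 7.60, 7.82, 7.63, 6.27 and 6.45 in all-neuron arrays 1 to 5, against 9.22 to 9.44 in trunk arrays, and the median was -3.42 with all-neuron arrays 4 and 5 and -1.84 with arrays 1 to 3. trim63a, a ubiquitin ligase of the sarcomere, read 5.60, 6.37, 5.84, 4.05 and 3.77 in all-neuron arrays, against 9.38, 9.65, 9.18 and 9.10 in trunk arrays (difference -4.20, SE 0.45, adjusted p = 2.16e-06). klhl41b, of the sarcomere too, read 7.41, 8.09, 7.70, 5.42 and 5.76 in all-neuron arrays, against 10.82, 10.74, 10.65 and 10.53 in trunk arrays (difference -3.81, SE 0.46, adjusted p = 6.97e-06, fold 14). myoz1b, a Z-disc protein, followed the same order of arrays, at 5.47 to 7.56 in all-neuron arrays against 10.07 to 10.68 in trunk arrays. mdh1ab (-3.93) and mat1a (-3.87), metabolic enzymes among the largest lower differences, were likewise lowest in all-neuron arrays 4 and 5.

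Blood and vessel genes were lower in 35 of 49 measured genes and higher in 2, with a median of -1.29 and mean levels of 4.53 to 4.65 in all-neuron arrays against 5.93 to 6.35 in trunk arrays. hbbe3, an embryonic beta-globin, had the largest difference of all named genes, at 4.77, 5.55, 5.00, 5.65 and 5.28 in all-neuron arrays, against 11.65, 11.31, 11.08 and 11.92 in trunk arrays (difference -6.24, SE 0.31, adjusted p = 2.72e-09). hbae3, an embryonic alpha-globin, read 7.45, 7.05, 6.76, 7.20 and 6.23 in all-neuron arrays, against 12.73, 12.38, 12.07 and 12.52 in trunk arrays (difference -5.49, SE 0.27, adjusted p = 2.5e-09, fold 45). slc4a1a, the anion exchanger of red cells, read 2.32, 2.39, 2.89, 3.03 and 2.75 in all-neuron arrays, against 8.56, 8.07, 7.48 and 8.57 in trunk arrays (difference -5.49, SE 0.34, adjusted p = 1.81e-08). Unlike muscle genes, these did not separate all-neuron arrays 4 and 5 from arrays 1 to 3. The water channel aqp1a.1 (-4.83) and the red cell carbonic anhydrase cahz (-4.22) were lower as well, and the higher members were gata2a and tal1, described with the V2 list.

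Mesoderm, somite and fin mesenchyme genes were lower in 27 of 46 measured genes and higher in 1 (median -0.76). tnn, a tenascin of the extracellular matrix, read 5.77, 5.69, 5.25, 3.86 and 4.04 in all-neuron arrays, against 9.13, 8.09, 8.86 and 9.43 in trunk arrays (difference -3.96, SE 0.45, adjusted p = 3.43e-06), in a probe set of the cluster shared with elavl3. col1a2, a chain of type I collagen, read 8.68, 8.51, 8.40, 6.16 and 6.48 in all-neuron arrays, against 10.77, 10.24, 10.67 and 10.93 in trunk arrays (difference -3.01, SE 0.50, adjusted p = 0.000141). Both were lowest in all-neuron arrays 4 and 5. foxc1a, a forkhead factor of mesoderm, was -2.96 (SE 0.29, adjusted p = 8.71e-07), and tbx16, a T-box factor, was the higher member (1.33), and 2 were higher without all-neuron array 5 or trunk array 4. Skin genes were lower in 33 of 56 measured genes and higher in 2, or 1 without trunk array 2 (median -0.80), but the count of lower genes was 15 against trunk arrays 3 and 4 alone and 20 with all-neuron arrays 1 to 3 alone. krt97, a keratin, read 4.68, 3.71, 3.92, 3.66 and 3.59 in all-neuron arrays, against 6.46, 6.41, 5.49 and 5.74 in trunk arrays (difference -2.11, SE 0.44, adjusted p = 0.00102). cdh1 (0.23), the epithelial cadherin, and tfap2a (0.17) did not pass, and the higher members were gata3 and ca2 (0.44).

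Neural crest and pigment genes were lower in 12 of 28 measured genes (42.9%) and higher in 1 (3.57%), tfap2b (1.16), or in 2 without trunk array 1. Their median of -0.29 changed sign to 0.17 with equal ribosomal protein means. dct, an enzyme of melanin synthesis, read 5.25, 5.35, 5.56, 4.79 and 4.89 in all-neuron arrays, against 9.54, 7.87, 8.98 and 9.03 in trunk arrays (difference -3.69, SE 0.32, adjusted p = 2.38e-07). crestin, a zebrafish neural crest marker, averaged 7.41 ± 0.55 in all spinal neurons (SD, n = 5) and 9.40 ± 0.75 in trunk cells (SD, n = 4), a difference of -1.99 (adjusted p = 0.000932). sox10 was also lower (-1.70).

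**Figure D5:**
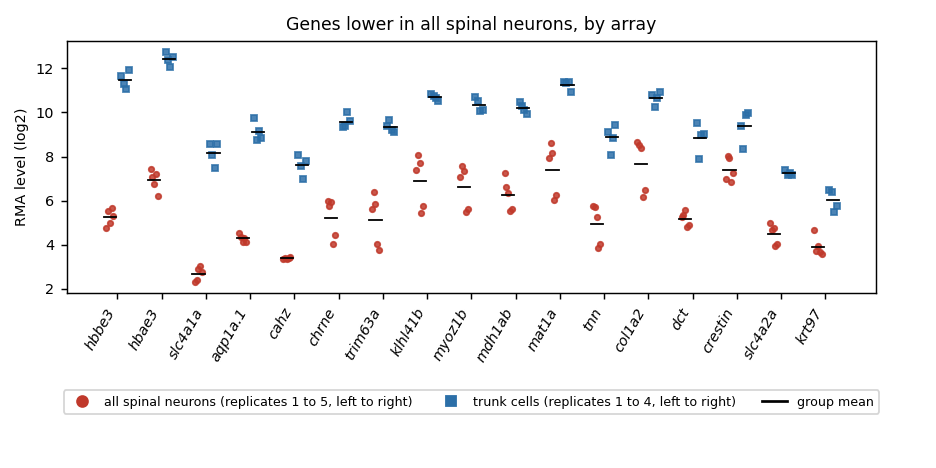
RMA level (log2) of 17 genes that were lower in all spinal neurons, with 5 all-neuron arrays as red circles to the left of 4 trunk arrays as blue squares, in replicate order, and the group mean as a black line. All-neuron arrays 4 and 5 lie below arrays 1 to 3 in muscle and matrix genes such as trim63a, klhl41b and col1a2, but not together below them in the red cell genes hbbe3, hbae3 and slc4a1a. In all-neuron arrays hbbe3 and slc4a1a lie near or below the median of all values, where a drop might not show.

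Lists of 3 other tissues had members called in both directions, beside shares over all probe sets of 20.8% higher and 20.6% lower. Notochord, floor plate and hypochord genes were higher in 9 (19.1%) and lower in 14 (29.8%) of 47 measured genes. Their median of -0.07 changed sign to 0.38 with equal ribosomal protein means. The higher ones included shha (1.71), foxa2 (1.45) and spon1b (1.39), genes of the floor plate, and the largest lower ones were lgals2a (-2.54, SE 0.17, adjusted p = 2.98e-08), a galectin, and matn4 (-2.11, SE 0.42, adjusted p = 0.000748), a matrix protein. The count of lower genes was 9 against trunk arrays 3 and 4 alone. Pronephros genes were higher in 10 (29.4%) and lower in 10 (29.4%) of 34 measured genes. Their median of -0.07 changed sign to 0.39 under the same scaling. The higher ones included gata3, lhx1a, pax2a (1.52), pax2b (1.07) and jag2b, which are also in the neuronal lists, and the largest lower ones were slc4a2a (-2.76, SE 0.29, adjusted p = 1.79e-06), an anion exchanger, in 1 of its 3 probe sets, and atp1a1a.4 (-2.47, SE 0.76, adjusted p = 0.016), a sodium pump subunit whose all-neuron array 1 read 8.75 against 3.98 to 4.24 on arrays 2 to 5 and 7.09 to 8.12 in trunk arrays. The count of lower pronephros genes was 6 against trunk arrays 3 and 4 alone and 4 with all-neuron arrays 1 to 3 alone. Glial genes were higher in 4 (28.6%) and lower in 5 (35.7%) of 14 measured genes (median 0.18). The glutamate transporter slc1a2b (1.81) lay at the high end, and the gap junction gene gja1b (-2.14), glula (-2.37) and foxc1a (-2.96) at the low end.

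Oxidative phosphorylation and ribosomal protein genes were mostly lower, and sterol synthesis genes mostly did not pass. Oxidative phosphorylation genes were lower in 62 of 68 measured genes and higher in 1, with a median of -0.65, and with equal ribosomal protein means the lower count was 18. ndufa9a, a subunit of complex I, read 8.77, 8.58, 8.60, 8.49 and 8.46 in all-neuron arrays, against 9.73, 10.13, 9.52 and 9.83 in trunk arrays (difference -1.22, SE 0.12, adjusted p = 1.15e-06, fold 2.33). cox6b1, a subunit of cytochrome c oxidase, was the exception, at 7.09 to 7.53 in all-neuron arrays, against 6.27, 6.36, 5.40 and 5.48 in trunk arrays 1 to 4 (difference 1.48, SE 0.19, adjusted p = 1.07e-05). Ribosomal protein genes were lower in 55 of 73 measured genes (median -0.45) and none was higher by limma, at an unadjusted p under 0.05 either. That count was 34 without trunk array 1, 19 against trunk arrays 3 and 4 alone and 33 with all-neuron arrays 1 to 3 alone. Scaled to equal ribosomal protein means, which fixes their average, 1 was lower and 2 were higher. Among 12 measured genes of sterol synthesis 2 were higher (16.7%), fdps (1.06) and acat2 (0.96), and 1 was lower (8.33%), hmgcs1 (-0.49, adjusted p = 0.0171), both shares below those over all probe sets. hmgcs1 did not pass without trunk array 1 or 2, and the count of lower genes was 0 without trunk array 2 and 2 without all-neuron array 4 or trunk array 4.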

How the data were processed

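The deposited table holds 15617 probe sets of the Affymetrix Zebrafish Genome Array as log2 values, which, per the submitters' processing notes, the authors made by RMA in Affymetrix Expression Console. For these programs no version is stated, and chip definition and genome build are likewise not given in the sources. Per the labels' protocols, RNA was amplified before labelling. After 115 control probe sets were left out, 15502 were tested. The platform annotation gave 1 symbol to 10795 of them, several to 135 and none to 4572, and only probe sets with 1 symbol were named (8793 genes). Gene numbers matched to current symbols changed 1 symbol, kept 10710 and left 84 unmatched.

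A limma model (version 3.58.1, R 4.3.3, lmFit and eBayes) of the 3 group means used all 15 arrays, with 12 residual degrees of freedom (15.55 after moderation), and Benjamini-Hochberg adjustment over all tested probe sets. RMA had already made the arrays' distributions alike, so a change in total RNA per cell is not measured. The number of arrays limits the precision. Each of 28 gene lists took 1 probe set per gene, the one with the highest mean over all arrays, and some genes are in several lists. Lists are described by counts and medians, with no test of a list.

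Named genes were elavl3, sypb, maptb and ndrg4, the 15 genes with the largest called increase and the 12 with the largest called decrease whose arrays did not overlap and whose higher mean reached 5.52, the 3 members with the largest called differences of each neuronal, class, progenitor and general list (2 for other cell types, 4 for muscle), and the called members of lists with 3 or fewer calls. The rule gave 80 genes with 102 probe sets. Other genes were chosen after their values were seen. Members and lists were chosen with earlier results of these data known. The labels do not say whether replicate numbers pair the samples. Deviations of same-numbered arrays correlated at 0.3017, -0.06283, -0.02767 and 0.1173, the first of them the highest of all pairs. Such correlations over probe sets cannot decide whether samples were paired. Alternatives were parts of each group, other scalings, filters, priors, array weights, a replicate block and leaving out each array. Steps were tested on simulated data, and Python 3.11.15 with matplotlib 3.10.9 made the figures.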

Additional observations from a re-analysis of the deposited data

Results flagged for a closer look

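Among the probe sets that stand for the named genes, 3 had 1 array far from the others of its group, by the size of its gap relative to the group's range. Chance flags about 1 in 20 groups in this way. For each of the 80 named genes 1 probe set was examined, with a neuron and a trunk group. atp1a1a.4, a sodium pump subunit, read 8.75 on all-neuron array 1, against 3.98 to 4.24 on the other all-neuron arrays. lhx1a read 6.24 on trunk array 4, against 6.42 to 6.45 on the others, and mat1a read 10.94 on trunk array 4, against 11.35 to 11.39. In lhx1a and mat1a, trunk array 4 differs from the other trunk arrays by far less than all spinal neurons differ from trunk cells.

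Control probe set AFFX-Dr-U43284-1_s_at, which entered no comparison, lay between 10.16 and 10.76 in all spinal neurons and between 4.98 and 5.59 on V1 arrays. In trunk cells it read 8.02 on array 1 and 8.16 on array 2, above 5.63 and 5.71 on arrays 3 and 4. The labels give the same description, with no transgenic line, for all 4 trunk arrays. The second brightest elavl3 probe set split the trunk arrays in the same way. Of 914 measured listed genes only 4 differed between the trunk pairs by their standing probe set. Over all tested probe sets 0.387% were higher and 0.516% lower between these pairs, so the 4 are no result about the listed genes. sox19b (1.73) and cox6b1 (0.87) were higher in trunk arrays 1 and 2, and p2rx5 (-1.27) and clstn1 (-1.05) lower.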

How the results depend on the processing

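The counts of 3219 higher and 3196 lower probe sets stayed within 1.5 times under most alternatives run. The exceptions were equal ribosomal protein means, with 8309 higher and 1294 lower (2398 and 574 with a log2 difference of 1 or more), a test against a log2 difference of 0.5, with 1266 and 1133, and a mean at or above the median of all values, which tests fewer probe sets, with 2091 lower. Leaving out each array in turn gave 2941 to 3110 higher and 2892 to 3101 lower, and 1057 to 1215 and 1068 to 1208 with a log2 difference of 1 or more. The fit with the replicate number as a block gave 3032 higher and 2879 lower. Whether replicate numbers pair the samples is not known, and not every array correlated best with its own number. Apart from the 4 markers, the 80 named genes were chosen by their called differences in these same data. Most were therefore bound to keep their call and sign, and the counts do not measure how stable other genes are. Of the 80 named genes 73 kept their call in every alternative and none changed sign. The other 7 (atp1a1a.4, ccne1, cdt1, hmgcs1, orc2, rpl29 and rpl39) lost it in 1 or more, 4 of them (ccne1, cdt1, hmgcs1 and orc2) on leaving out 1 array. The cause of these changes was not tested. Without detection calls, differences of dim probe sets remain differences of signal.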

Other observations

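Enzymes of glycolysis and energy transfer showed opposite differences between related genes, in a set chosen after its values were seen and tested nowhere as a group. gapdhs, one form of the glyceraldehyde phosphate dehydrogenase, read 12.24, 11.45, 11.60, 12.18 and 12.10 in all-neuron arrays, against 10.35, 10.07, 9.99 and 10.73 in trunk arrays (difference 1.63, adjusted p = 2.57e-06), while gapdh, the other form, was lower (-2.19, adjusted p = 0.000497). Among aldolases aldocb was higher (1.91) and aldoab lower (-2.71), and aldoaa did not pass (0.18). Among phosphoglycerate mutases pgam1b (1.51) and pgam1a (1.07) were higher and pgam2, the form of mammalian muscle, lower (-3.12). Glucose phosphate isomerase split into gpia (0.71) and gpib (-2.51), phosphofructokinase into pfkpa (0.46) and pfkma (-2.82), and cytosolic malate dehydrogenase into mdh1aa (0.37) and mdh1ab (-3.93). The increases of pfkpa (limma, adjusted p = 0.0428) and mdh1aa (adjusted p = 0.0237) were weak. In these probe sets the groups overlapped. Neither passed against trunk arrays 3 and 4 alone, in all-neuron arrays 4 and 5 alone or in arrays 1 to 3 alone. Creatine kinase ckbb was higher (2.09), while ckma (-2.1), ckmb (-1.47) and ckba (-1.17) were lower. Enolase did not split in this way, with eno3 lower (-2.72) and eno1a not passing (-0.16).

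The lower forms aldoab, pgam2, ckma and gapdh were lowest on all-neuron arrays 4 and 5, as muscle genes were. gapdh read 10.67, 11.25, 10.76, 8.74 and 9.20 in all-neuron arrays, against 12.48, 12.34, 12.28 and 12.13 in trunk arrays. ckba was not, at 7.30, 7.59, 7.64, 7.76 and 7.66 in all-neuron arrays, against 8.93, 8.94, 8.67 and 8.48 in trunk arrays. Of the hexokinases hk1 was higher (1.35) and hk2 lower (-0.5). The sodium pump subunits atp1a3a (2.29) and atp1a1b (0.73) were higher, unlike atp1a1a.4 (-2.47). However, hk2 did not pass against trunk arrays 3 and 4 alone, nor atp1a1b against trunk arrays 1 and 2 alone. Neither of them passed in all-neuron arrays 4 and 5 alone. Also higher were pkma (1.46), the glucose transporter slc2a3a (1.87) and acaca (2.07), which starts fatty acid synthesis.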
